A study of Homo sapiens with 12 samples.

Results

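The replication-dependent histone genes were followed across 12 RNA-seq libraries of THP-1, an established human monocytic leukemia line. They were taken as the protein-coding genes whose symbols name a clustered H1, H2A, H2B, H3 or H4 copy (H1-1 to H1-6 and the H2AC, H2BC, H3C and H4C series). A further condition was at least 10 estimated counts summed over all libraries. Of 68 genes with such a name in the table of 62914 entries, 36 met this minimum, 32 had fewer counts, and 9 of those 32 had none at all. The 36 comprised 4 H1, 8 H2A, 12 H2B, 6 H3 and 6 H4 genes, 25 of them on chromosome 6, 10 on chromosome 1 and 1 on chromosome 12. In the study, 3 libraries were made for each of 4 groups: no treatment, 3'-3'-cGAMP at 1 μg/mL, and chlorquinaldol at 20 μM or at 50 μM, with 8 h of treatment. The dinucleotide 3'-3'-cGAMP activates the innate immune adaptor STING and served as the positive control for antiviral signaling, and chlorquinaldol is a chlorinated hydroxyquinoline antiseptic. All groups were the same unmodified line. Neither a vehicle for the untreated cells nor the source of the replicates is given in the sources used here, so p-values measure only the spread between these samples, and solvent and drug cannot be told apart.

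Core histones H2A, H2B, H3 and H4 wrap DNA into nucleosomes, and the linker histone H1 binds the DNA between them. Messages of the replication-dependent copies are made mainly in S phase, when new DNA must be packaged. They normally end not in a poly(A) tail but just after a short hairpin, which the stem-loop binding protein SLBP recognises and the U7 small nuclear ribonucleoprotein helps to cleave. Some copies also yield polyadenylated messages that run past the hairpin to an ordinary poly(A) signal, and these are better known from resting and differentiated cells. The libraries were made with oligo(dT) beads, so they sample the polyadenylated forms and whatever tail-less RNA carries over. A level below is therefore not the total histone message of the cell.

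The hairpins that normally end these messages are shown for the genes on which the results turn, to make clear what an oligo(dT) library has to read past. A script searched GENCODE 29 transcripts for GGNNNNTTNNNNNNCC with all 6 stem bases paired, on the transcript strand. The 16-base hairpin is in capitals, with 5 flanking bases on each side, written 5′ to 3′ as DNA.
H2AC18: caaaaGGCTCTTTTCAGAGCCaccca
H2AC6: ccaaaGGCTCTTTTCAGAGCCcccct
H2AC25: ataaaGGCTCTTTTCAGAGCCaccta
H2BC21: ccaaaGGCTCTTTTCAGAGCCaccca
H2BC5: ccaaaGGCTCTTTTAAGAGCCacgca
H2BC9: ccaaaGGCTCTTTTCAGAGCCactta
H4C14 and H4C15: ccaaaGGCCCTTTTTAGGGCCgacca

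This hairpin was in 217 of 83129 protein-coding transcripts of the annotation (0.261%) and in a transcript of 20 of the 36 histone genes. The letters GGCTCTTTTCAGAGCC were in 12 of those 20, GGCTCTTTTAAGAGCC in 3, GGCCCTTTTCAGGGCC in 3 and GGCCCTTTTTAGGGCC in 2. In 17 of them at least 1 transcript model ran more than 100 bases beyond the hairpin, and in 15 of the 36 a model held the poly(A) signal AATAAA in its last 40 bases. H2BC21 and H2BC9 had the longest such extensions of the genes shown, with 1729 and 1640 bases after the hairpin. The H2AC6 models ran up to 1128 bases past it, those of H4C14 and H4C15 up to 1167 and 1314 bases, and that of H2AC25 390 bases. For H2AC6, H4C14 and H4C15 these longest models are annotated for nonsense-mediated decay. Their longest protein-coding models ran 1114, 194 and 690 bases past the hairpin. The H2AC18 model stopped 35 bases after the hairpin but also held AATAAA. H2BC5 had a 496-base model with the hairpin and a 789-base model without it, both with AATAAA. The models of H1-2 (642 bases), H2AC20 (390 bases) and H2BC12 (381 bases) held no such hairpin, and models that stop at the coding sequence cannot show one.

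Levels were low. Histone reads, over all 68 names, made up 0.00331% to 0.00529% of the 17588491 to 19180594 gene counts in a library. Only 11 of the 36 genes passed the filter on low counts and were tested among 16628 genes, and the other 25 did not. Levels are given as CPM (library-size scaled counts, with TMM factors), as mean ± SD with n = 3. A log2 change comes with its SE and an edgeR quasi-likelihood p adjusted over all tested genes, and a gene was called when that p was below 0.05. The cells carried their labelled identity: all 14 monocyte markers were tested, at 1996 to 2762 CPM summed per library. Markers of other lineages summed to at most 16.4 CPM (T and NK cells), 13.7 (B cells), 4.1 (fibroblasts), 1.49 (erythroid cells and megakaryocytes) and 0.98 (epithelium), and MS4A1, COL1A2, HBB, PF4 and KRT19 were at 0 in every library.

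H2AC18, a canonical H2A gene, had the highest level per unit of length, at a mean of 42.1 FPKM over the 12 libraries. H1-2, a linker histone, followed at 9.69 FPKM, H4C14 at 9.29, H4C15 at 7.26, H2BC12 at 5.11 and H2AC25 at 3.92. Apart from H2AC18, neighbours in this order did not stand apart: over the untreated libraries H1-2 was at 7.77 ± 0.356 FPKM, H4C14 at 6.74 ± 1.21 and H4C15 at 5.66 ± 1.43. The highest counts in the H1, H2A, H2B, H3 and H4 classes belonged to H1-2, H2AC18, H2BC21, H3C15 and H4C14. H3C15 alone of these 5 did not pass the filter, and no H3 gene did.

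Chlorquinaldol was compared with untreated cells at each dose, to see which transcripts an 8 h exposure changed. Of the 11 tested histone genes, H2AC18, H2AC6, H2BC5, H1-2 and H4C14 rose at both doses, H2AC20 and H2BC9 fell at both, and H2BC21, H4C15, H2AC25 and H2BC12 were not called at either. That is 7 of 11 called at each dose, where 55.1% of all tested genes were called at 20 μM and 66.9% at 50 μM, so the share called was near the background. H2BC5 passed the filter only through the drug groups, H2BC9 only through the untreated and cGAMP groups, and H2AC20 held 10 counts in 1 of its 6 drug libraries, so the tally gives no support of its own. The share called higher was 27.1% and 32.2% of all genes in that order, and the share called lower 28% and 34.7%. The median log2 change of the 11 was 0.44 at 20 μM and 0.24 at 50 μM, against −0.00 and −0.03 over all tested genes. The middle gene at both doses was H4C15, whose reads can be exchanged with those of H4C14, so this median depends on how they were divided. Both doses were compared with the same 3 untreated libraries.

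**Figure D1:**
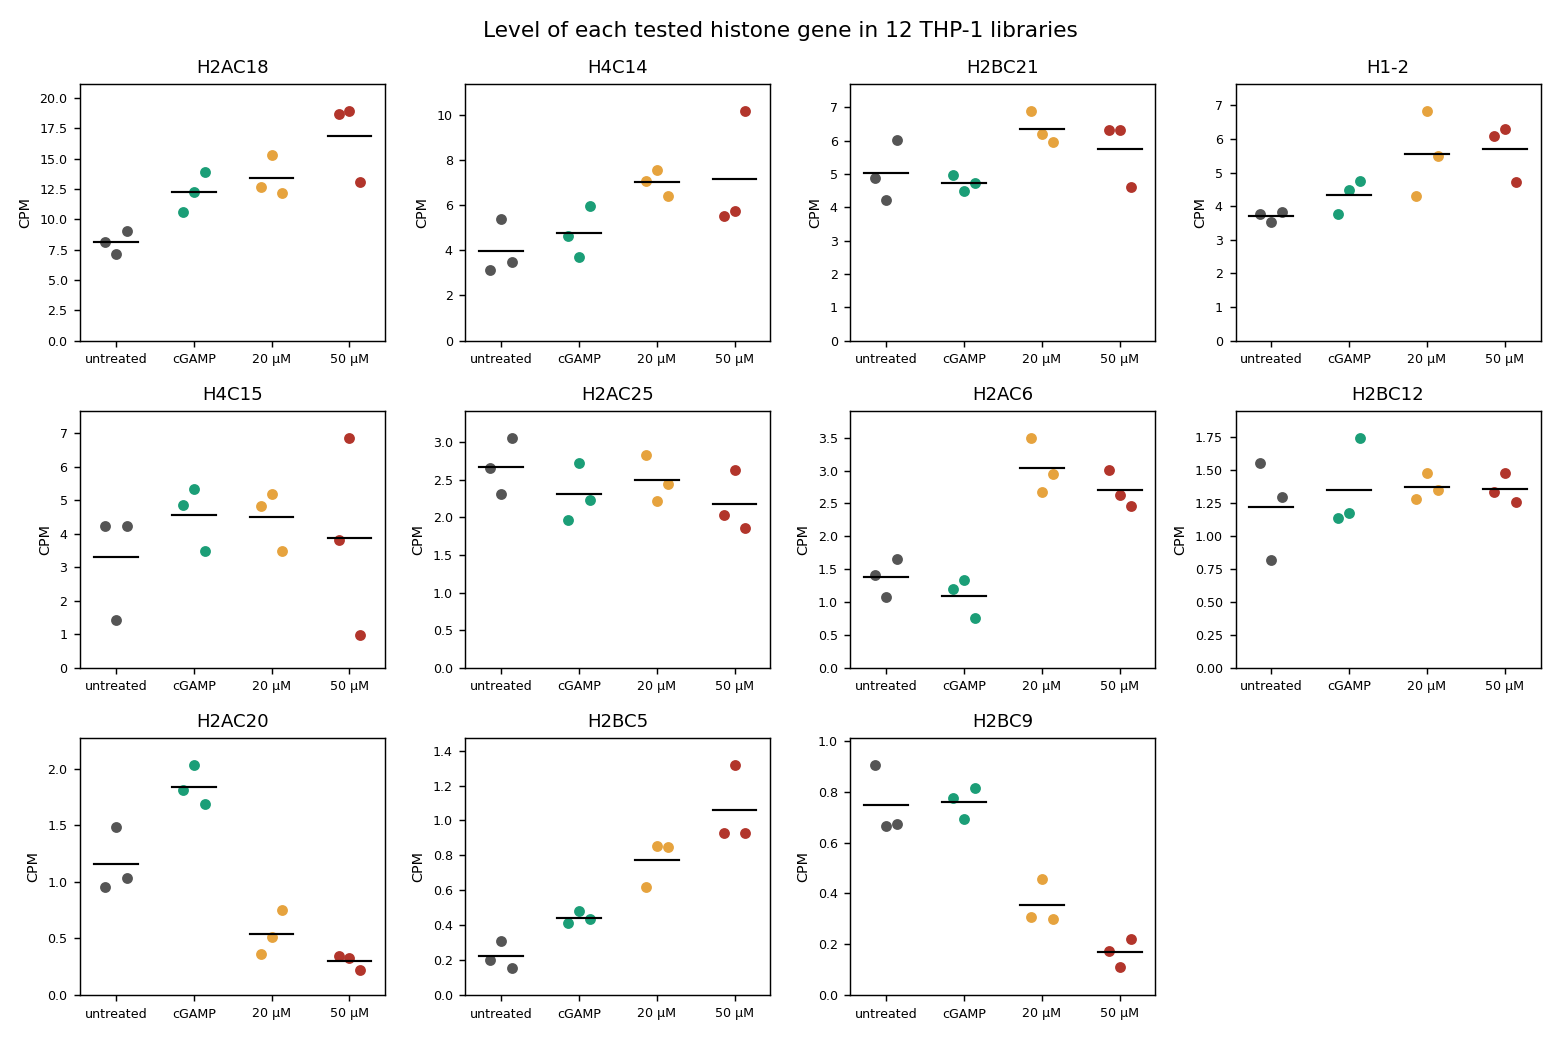
Level of each of the 11 tested histone genes (CPM, vertical axes from 0 and different in each panel) in untreated cells, with cGAMP, and with 20 or 50 μM chlorquinaldol. Points are libraries and bars are group means. H2AC18, H2AC6 and H2BC5 sit higher and H2AC20 and H2BC9 lower with the drug than in untreated cells. The H2AC18 libraries with cGAMP overlap those with the drug.

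H2AC18 (ENSG00000288825, chromosome 1, 149842218 to 149842750, minus strand) was read at 8.09, 7.17 and 9.06 CPM in untreated cells, 12.6, 15.3 and 12.2 at 20 μM, and 18.7, 18.9 and 13.0 at 50 μM. Every drug library lay above every untreated one, and the third 50 μM library lay within the 20 μM range. The log2 change was 0.72 ± 0.15 at 20 μM (1.65-fold, adjusted p = 0.000739) and 1.06 ± 0.15 at 50 μM (2.08-fold, adjusted p = 8.84e-06). H2AC19, a second copy with an identical 549-base stretch of transcript, had 0 counts. These 2 copies cannot be told apart in these values, which are best read as their joint level. All H2AC18 counts were fractional. In each library they added up to a whole number with those of H2AC20, such as 160.88 and 19.12 in the first untreated library. Some reads were therefore divided between H2AC18 and H2AC20.

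H2AC6, another H2A gene (ENSG00000180573, chromosome 6, 26124172 to 26124690, plus strand), stood at 1.41, 1.08 and 1.66 CPM in untreated cells. It reached 3.49, 2.68 and 2.95 CPM at 20 μM and 3.02, 2.63 and 2.46 CPM at 50 μM, with no overlap between treated and untreated libraries. The log2 change was 1.14 ± 0.23 at 20 μM (2.20-fold, adjusted p = 0.000381) and 0.97 ± 0.23 at 50 μM (1.95-fold, adjusted p = 0.00129). The authors' FPKM values gave a smaller change at 50 μM, with a log2 change as low as 0.35 on log2(FPKM + 1). Limma did not call it with 1 or with 0.1 added. An added 1 shrinks a log2 change at levels this low (1.41 ± 0.65 FPKM untreated, 1.99 ± 0.08 at 50 μM). The effective length that links counts to FPKM moved between 702 and 1391 bases across the libraries for this gene. The parts of length and of the added constant in the difference between the 2 units were not tested.

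H2BC5, an H2B gene with 13 counts in all 3 untreated libraries together (ENSG00000158373, chromosome 6, 26158121 to 26171349, plus strand), showed the largest rise of the tested genes in log2 terms at both doses. It was at 0.201, 0.308 and 0.155 CPM in untreated cells, 0.616, 0.854 and 0.85 CPM at 20 μM, and 0.928, 1.32 and 0.931 CPM at 50 μM. The groups did not overlap, with the untreated libraries lowest and the 50 μM libraries highest. The log2 change was 1.77 ± 0.38 at 20 μM (3.42-fold, adjusted p = 0.00081) and 2.23 ± 0.37 at 50 μM (4.68-fold, adjusted p = 4.02e-05). No untreated or cGAMP library held 10 counts of it, so it entered the test only through the drug groups, where it was high. Its annotated span overlaps H2BC6-AS1 and LARP1P1.

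H1-2 (ENSG00000187837, chromosome 6, 26055740 to 26056470, minus strand), a major somatic linker histone gene, was tight in untreated cells at 3.77, 3.54 and 3.83 CPM. The drug libraries were more spread, at 4.31, 6.83 and 5.5 CPM for 20 μM and 6.09, 6.3 and 4.71 CPM for 50 μM, and all were above the untreated ones. The log2 change was 0.58 ± 0.18 (1.49-fold, adjusted p = 0.0103) and 0.62 ± 0.18 (1.53-fold, adjusted p = 0.00503) in that order.

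H4C14 (ENSG00000270882, chromosome 1, 149832657 to 149833052, plus strand) and H4C15 (ENSG00000270276, chromosome 1, 149844488 to 149861240, minus strand) encode histone H4 and share a 1547-base stretch of transcript. H4C14 was at 3.12, 5.38 and 3.47 CPM in untreated cells, 7.09, 7.57 and 6.4 CPM at 20 μM, and 5.51, 5.76 and 10.2 CPM at 50 μM. H4C15 was at 4.22, 1.44 and 4.24 CPM, 4.83, 5.18 and 3.5 CPM, and 3.83, 6.85 and 0.986 CPM in the same order. Libraries with an unusually high H4C14 were those with an unusually low H4C15: the second untreated and the third 50 μM library. H4C14 alone rose at 20 μM (log2 0.81 ± 0.24, adjusted p = 0.00891) and at 50 μM (0.84 ± 0.24, adjusted p = 0.00547), and the 20 μM call was lost without the first untreated library (adjusted p = 0.0504). H4C15 alone was not called, at 0.44 ± 0.43 (adjusted p = 0.411) and 0.24 ± 0.45 (adjusted p = 0.656), except at 20 μM without the filter on low counts (adjusted p = 0.0365). Which of these copies changed is uncertain, since their reads can be exchanged.

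**Figure D2:**
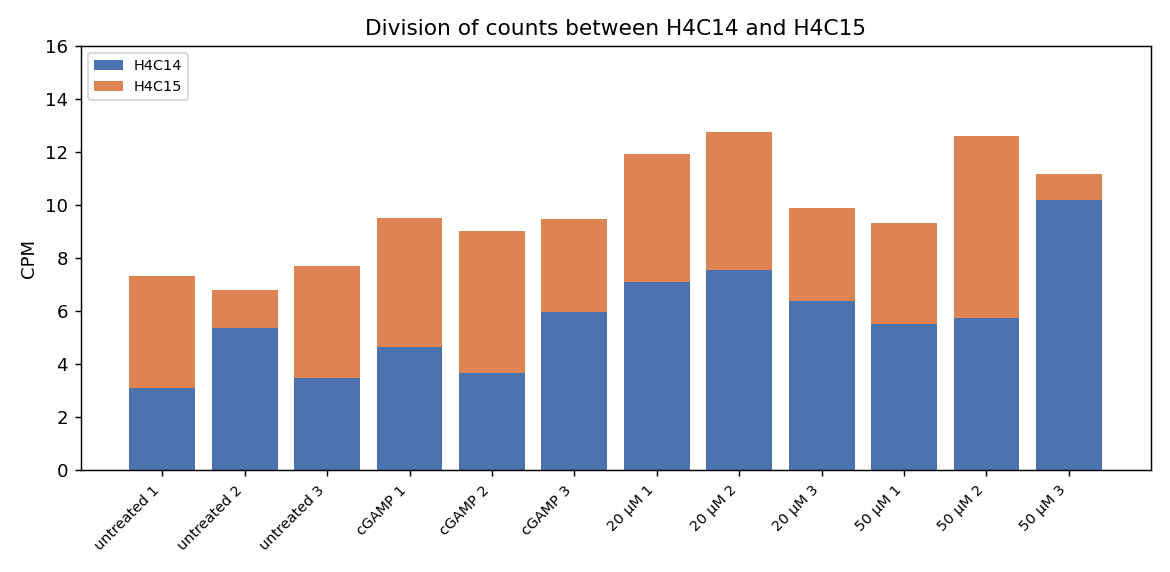
CPM of H4C14 and H4C15 stacked for each library, vertical axis from 0. The division between the copies varies within a group, and the sum varies less: 6.82 to 7.71 CPM in untreated cells, 9.9 to 12.8 at 20 μM and 9.34 to 12.6 at 50 μM.

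With the counts of the pair summed to 1 feature, a step added after their division had been seen, the spread shrank and the groups separated. The sum was 7.29 ± 0.45 CPM in untreated cells, 11.5 ± 1.46 at 20 μM and 11.0 ± 1.64 at 50 μM. Its log2 change was 0.66 ± 0.13 at 20 μM (1.58-fold, adjusted p = 0.000332) and 0.60 ± 0.13 at 50 μM (1.52-fold, adjusted p = 0.000555). The locus also holds H3C15, which lies within the H4C15 span on the opposite strand, and the read strand is not given in the sources used here.

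H2AC20, an H2A gene (ENSG00000184260, chromosome 1, 149886918 to 149887411, plus strand), had lower counts with the drug. It shares a 149-base stretch of transcript with the more abundant H2AC18. All counts of both genes were fractional and added up to a whole number in each library, so shared reads were divided between them. The pair was not fitted as a sum, and the part of this division in the H2AC20 change was not tested. H2AC20 was at 0.955, 1.49 and 1.04 CPM in untreated cells, 0.36, 0.512 and 0.75 CPM at 20 μM, and 0.348, 0.329 and 0.219 CPM at 50 μM, with no overlap among the 3 groups. The log2 change was −1.09 ± 0.32 at 20 μM (adjusted p = 0.00839) and −1.94 ± 0.36 at 50 μM (adjusted p = 0.000141). The counts were few, 68 in all untreated libraries together, 31 at 20 μM and 16 at 50 μM. Without the first 20 μM library or without the second untreated one the 20 μM call was lost, with an adjusted p of at most 0.0591.

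H2BC9, an H2B gene (ENSG00000275713, chromosome 6, 26251614 to 26252075, plus strand), fell with a similar size. Levels of 0.905, 0.666 and 0.673 CPM in untreated cells compared with 0.308, 0.455 and 0.3 CPM at 20 μM and 0.174, 0.11 and 0.219 CPM at 50 μM, again without overlap. The log2 change was −1.08 ± 0.35 at 20 μM (adjusted p = 0.0151) and −2.12 ± 0.41 at 50 μM (adjusted p = 0.000195), from 44, 20 and 9 counts per group. All 6 drug libraries held fewer than 10 counts, so the gene entered the test only through the groups where it was high. The 20 μM call was lost under DESeq2, without the filter, and without the first untreated, the first 20 μM or the third 20 μM library (adjusted p up to 0.103). The median effective length of 226 bases was 236 below the 462 bases of the RefSeq gene, a gap also seen in H1-2 (237), H2AC20 (237), H2BC21 (237) and H2AC18 (236.5). A model of 462 bases does not cover most of the 2060-base GENCODE 29 transcript, so reads from its long extension are largely missing from these counts.

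The other 4 tested genes were not called with either dose. H2BC21, the H2B gene with the most counts and the 1729-base extension (ENSG00000184678, chromosome 1, 149884459 to 149886682, minus strand), was at 4.87, 4.2 and 6.0 CPM in untreated cells, 6.88, 6.2 and 5.95 CPM at 20 μM, and 6.32, 6.3 and 4.6 CPM at 50 μM. Its log2 change was 0.34 ± 0.16 (adjusted p = 0.0782) and 0.19 ± 0.16 (adjusted p = 0.3). It was called higher at 20 μM with the 1 CPM filter and without the third untreated, the first 50 μM or the third 50 μM library (adjusted p down to 0.0249), and at 50 μM without the third 50 μM library (0.0373). H2AC25, an H2A gene outside the large clusters (ENSG00000181218, chromosome 1, 228457364 to 228457873, minus strand), ranged from 2.31 to 3.05 CPM in untreated cells and from 1.86 to 2.83 CPM with the drug. H2BC12, an H2B gene (ENSG00000197903, chromosome 6, 27138293 to 27146858, minus strand), ranged from 0.82 to 1.56 CPM in untreated cells and from 1.26 to 1.48 CPM with the drug. With 72 to 78 counts per group, its log2 change was 0.16 ± 0.27 at 20 μM (adjusted p = 0.64) and 0.15 ± 0.27 at 50 μM (adjusted p = 0.646).

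**Figure D3:**
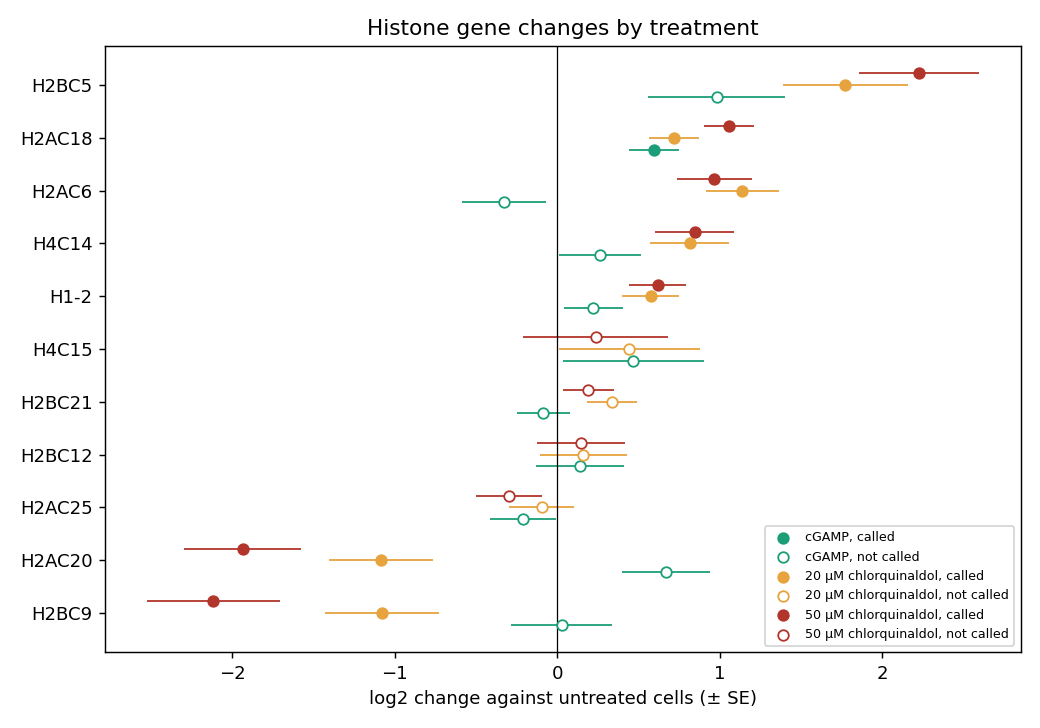
Log2 change of the 11 tested histone genes against untreated cells (horizontal axis, bars are SE) for cGAMP and the 2 chlorquinaldol doses. Filled points are called at an adjusted p below 0.05: 5 genes lie to the right and 2 to the left of 0 at both doses, and H2AC18 is the 1 filled point for cGAMP.

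Between the doses, none of the 11 genes was called higher or lower by edgeR, where 38.1% of all tested genes were called. At an unadjusted p below 0.05 there was 1 gene, H2AC18, with a log2 difference of 0.34 ± 0.15 (adjusted p = 0.08), and DESeq2 called 0. The differences were −0.85 ± 0.41 for H2AC20 (adjusted p = 0.111), −1.04 ± 0.47 for H2BC9 (adjusted p = 0.116) and 0.45 ± 0.30 for H2BC5 (adjusted p = 0.253). For H4C14 and H1-2 the differences were 0.03 ± 0.23 and 0.04 ± 0.17. A missed threshold does not show that the doses acted alike.

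cGAMP was compared with untreated cells as the study's positive control. H2AC18 rose, and it was the 1 called gene of 11, where 23.3% of all tested genes were called (11.6% higher, 11.8% lower). Its libraries stood at 10.6, 12.2 and 13.9 CPM, all above the untreated 7.17 to 9.06 CPM, with a log2 change of 0.59 ± 0.16 (1.51-fold, adjusted p = 0.0102). This call was lost without the second untreated library, without the third cGAMP library and with FPKM of all genes, where the adjusted p reached 0.0731. H2AC20 (1.81, 2.03 and 1.69 CPM, log2 0.67 ± 0.27, adjusted p = 0.0863) and H2BC5 (0.414, 0.481 and 0.436 CPM, log2 0.98 ± 0.42, adjusted p = 0.114) also lay above all untreated libraries but were not called. H4C14 and H4C15 summed were at 9.34 ± 0.28 CPM (log2 0.36 ± 0.13, adjusted p = 0.0575). H1-2 was at 3.78, 4.49 and 4.74 CPM (log2 0.22 ± 0.18, adjusted p = 0.406), H2AC6 at 1.19, 1.34 and 0.762 CPM (log2 −0.33 ± 0.26, adjusted p = 0.394) and H2BC9 at 0.776, 0.694 and 0.817 CPM (log2 0.03 ± 0.31, adjusted p = 0.966). The median of the 11 was 0.22, and that of all tested genes −0.05.

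RNAs that carry no poly(A) tail also differed in the cGAMP libraries. The 26 such RNAs listed (small nuclear, signal recognition particle, 7SK and related RNAs) ranged in sum from 29.1 to 39.0 CPM in untreated libraries and from 42.0 to 104.3 CPM after cGAMP. The 20 μM range was 25.9 to 46.2 CPM and the 50 μM range 32.5 to 52.5 CPM. Of the 3 that were tested, RN7SL1 (log2 1.00 ± 0.28, adjusted p = 0.014) and RN7SL2 (log2 1.16 ± 0.25, adjusted p = 0.00305), RNAs of the signal recognition particle, rose with cGAMP. RN7SK, the RNA that holds the elongation kinase P-TEFb inactive, was not called (log2 0.98 ± 0.40, adjusted p = 0.0901), and none of the 3 was called at either drug dose. Of all tested genes, 11.6% rose with cGAMP, and 55.1% and 66.9% were called at 20 and 50 μM. RNU7-1, the RNA of the U7 particle, was at 0 in every library. Carry-over of tail-less RNA was not measured apart from changes in these RNAs themselves. Any part of it in the rise of H2AC18 with cGAMP was not tested.

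Chlorquinaldol at 50 μM was also set against cGAMP. H2AC18, H2AC6, H2BC5 and H4C14 were higher and H2AC20 and H2BC9 lower with the drug, 6 of 11, where 66.7% of all tested genes were called (32% higher, 34.7% lower). The largest difference was in H2AC20, with a log2 of −2.60 ± 0.34 (adjusted p = 3.13e-06), since its cGAMP libraries lay above and its drug libraries below the untreated ones. Its reads are partly divided with H2AC18. H2BC9 differed by −2.14 ± 0.41 (adjusted p = 0.00018), H2AC6 by 1.29 ± 0.24 (adjusted p = 0.000132) and H2BC5 by 1.24 ± 0.33 (adjusted p = 0.00288). H2AC18 (0.46 ± 0.15, adjusted p = 0.0104) and H4C14 (0.58 ± 0.24, adjusted p = 0.0398) had overlapping libraries. The call of each was lost without the first cGAMP library, and the summed H4 pair was not called (0.24 ± 0.13, adjusted p = 0.104).

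Over all 36 genes the summed level was 35.0 ± 3.45 CPM in untreated cells, 41.6 ± 2.63 with cGAMP, 47.2 ± 3.52 at 20 μM and 49.8 ± 6.2 at 50 μM. These are 1.19, 1.35 and 1.42 times the untreated sum. Without H2AC18 the ratios were 1.09, 1.26 and 1.22, so 1 gene held much of the difference. H2A genes went from 13.8 ± 1.39 CPM to 17.9 ± 1.71, 19.7 ± 1.17 and 22.3 ± 3.82 CPM, in the order cGAMP, 20 μM and 50 μM. H2AC18 alone held 8.11 CPM of the untreated H2A sum and 12.2, 13.4 and 16.9 CPM of the others in that order. The rise of the H2A sum is therefore mainly that of H2AC18. H4 genes went from 7.75 ± 0.50 CPM to 9.91 ± 0.46, 11.9 ± 1.32 and 11.7 ± 1.7 CPM, and H1 genes from 4.09 ± 0.18 CPM to 4.74 ± 0.59, 5.67 ± 1.11 and 5.87 ± 0.88 CPM. H4C14 and H4C15 held 7.29 CPM of the untreated H4 sum, and H1-2 held 3.71 CPM of the untreated H1 sum. H2B genes were nearer to their untreated 8.36 ± 0.98 CPM, at 8.18 ± 0.42, 9.53 ± 0.34 and 9.47 ± 1.1 CPM. The sums are descriptions and carry no test.

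**Figure D4:**
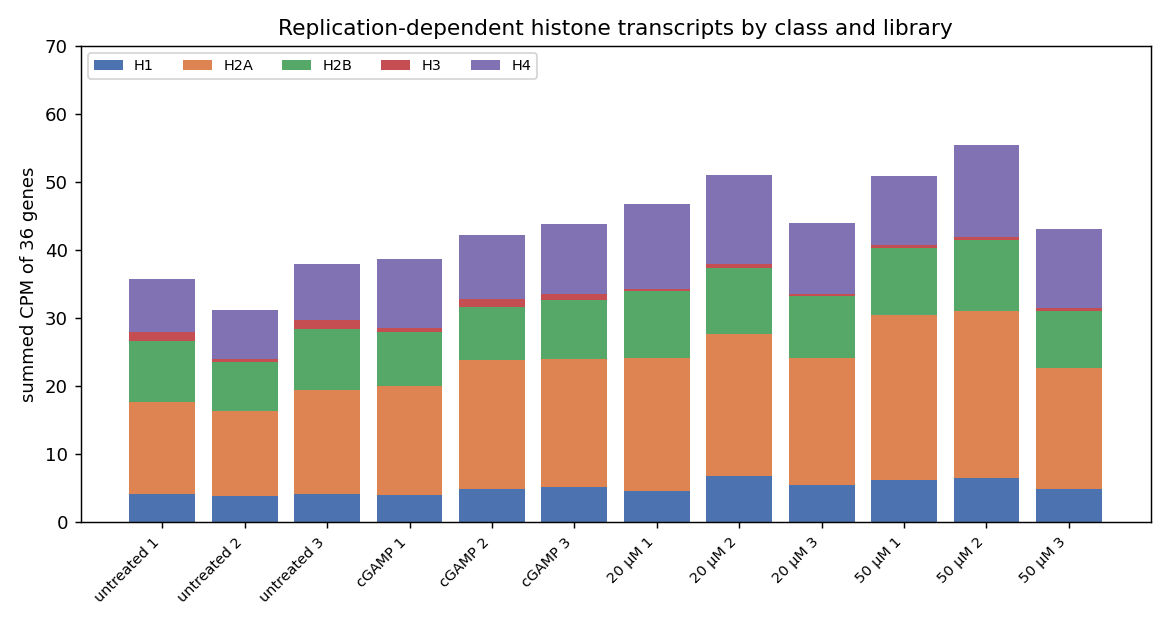
Summed CPM of the 36 histone genes in each library (vertical axis from 0), stacked by class. Untreated totals run from 31.3 to 38.0 CPM, cGAMP totals from 38.7 to 43.8 CPM and drug totals from 43.1 to 55.4 CPM, and H3 is the thinnest layer in every library.

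H3 was the class with the fewest reads: 63 counts over the untreated libraries, 49 with cGAMP, 25 at 20 μM and 27 at 50 μM. Its summed level was 1.07 ± 0.53 CPM in untreated cells, 0.87 ± 0.23 with cGAMP, 0.448 ± 0.206 at 20 μM and 0.504 ± 0.071 at 50 μM. The second untreated library, at 0.461 CPM, lay within the range of the drug libraries. H3C15 (ENSG00000203852, chromosome 1, 149852608 to 149853125, plus strand) held the most counts of the class, with 16, 5 and 13 counts in the untreated libraries, 6, 5 and 4 with cGAMP, 0, 6 and 5 at 20 μM, and 5, 3 and 1 at 50 μM. In a fit with no filter on low counts, over 35014 genes of which 26% were called at 20 μM and 33.1% at 50 μM, H3C15 fell at both doses (log2 −1.50 ± 0.57, adjusted p = 0.0348, and −1.69 ± 0.59, adjusted p = 0.0153). H3C14, a further H3 copy, had 0 counts. Its transcript model has the same length as that of H3C15 (1656 bases) and the same hairpin with flanks, and the sequence they share was not measured. The H3C15 values may therefore be a joint level of both. The 25 genes under the filter together went from 3.49 ± 0.58 CPM in untreated cells to 3.11 ± 0.56 with cGAMP, 1.87 ± 0.21 at 20 μM and 2.7 ± 0.09 at 50 μM, while the 11 above it went from 31.5 ± 3.04 to 38.5 ± 2.18, 45.4 ± 3.6 and 47.1 ± 6.16 CPM. Apart from H3C15, the no-filter fit called 1 further gene of the 25 in any comparison, H2BC15, which had 20 counts at 50 μM and 4 at 20 μM (log2 2.31 ± 0.77, adjusted p = 0.0178).

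The promoters are shown for the pair that starts from 1 shared stretch and for genes with opposite changes. H2BC21 and H2AC20 are transcribed in opposite directions from starts 235 bases apart, so 1 window serves for both. The H2AC20 counts, partly divided with H2AC18, fell with the drug while H2BC21 was not called. H2BC5 rose and H2BC9 fell, and H2AC18 had the highest level. Each RefSeq window (GRCh38.p14) runs 5′ to 3′ from 250 bases before to 50 after the start. Capitals mark the TATA box letters TATAAA, the box CCAAT and the octamer ATTTGCAT on either strand, elements known from histone promoters.
H2AC20 promoter, chr1:149886668-149886967, plus strand: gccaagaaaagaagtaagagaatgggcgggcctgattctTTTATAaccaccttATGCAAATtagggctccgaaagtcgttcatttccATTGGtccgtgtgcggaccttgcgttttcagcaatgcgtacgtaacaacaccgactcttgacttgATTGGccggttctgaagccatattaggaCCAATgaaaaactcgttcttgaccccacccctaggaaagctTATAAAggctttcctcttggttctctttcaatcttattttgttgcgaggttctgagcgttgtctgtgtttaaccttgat
H2BC5 promoter, chr6:26157871-26158170, plus strand: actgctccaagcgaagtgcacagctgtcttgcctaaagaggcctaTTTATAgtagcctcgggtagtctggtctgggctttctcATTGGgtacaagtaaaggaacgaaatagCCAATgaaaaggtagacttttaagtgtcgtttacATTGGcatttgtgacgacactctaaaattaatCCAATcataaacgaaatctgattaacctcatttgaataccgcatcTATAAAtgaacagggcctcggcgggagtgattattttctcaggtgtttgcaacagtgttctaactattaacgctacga
H2BC9 promoter, chr6:26251364-26251663, plus strand: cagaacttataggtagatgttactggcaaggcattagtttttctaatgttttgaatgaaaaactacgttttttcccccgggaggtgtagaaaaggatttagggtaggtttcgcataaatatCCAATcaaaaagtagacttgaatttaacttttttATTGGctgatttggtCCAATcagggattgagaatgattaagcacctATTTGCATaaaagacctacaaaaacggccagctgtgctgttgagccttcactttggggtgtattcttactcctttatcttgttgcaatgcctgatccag
H2AC18 promoter, chr1:149842701-149843000, minus strand: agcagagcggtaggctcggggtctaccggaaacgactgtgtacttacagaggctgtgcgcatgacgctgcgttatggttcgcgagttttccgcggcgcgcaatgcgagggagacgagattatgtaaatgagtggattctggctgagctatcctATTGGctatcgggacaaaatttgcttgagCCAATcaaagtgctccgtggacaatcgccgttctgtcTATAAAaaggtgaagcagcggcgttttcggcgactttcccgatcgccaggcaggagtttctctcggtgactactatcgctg

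Of 27305 promoter windows, 11.95% held TATAAA on either strand, 35.7% CCAAT, 1.8% ATTTGCAT and 0.66% the E2F-type letters TTTGGCGC. A window was found for 35 of the 36 histone genes, of which 22 held TATAAA, 29 CCAAT, 16 ATTTGCAT and 0 TTTGGCGC. All 12 H2B windows held CCAAT, and 9 of 12 held the octamer, which is the classic H2B element bound by OCT1. Among the 11 tested genes the counts were 6, 9, 5 and 0. Of the genes that rose, H2AC18, H2AC6 and H2BC5 held TATAAA, and of those that fell, H2AC20 did and H2BC9 did not. The octamer was in both genes that fell and, among those that rose, in H2AC6. The H4C14 window held none of these letters. A match describes letters in a window and says nothing of binding.

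The machinery that makes and ends histone messages changed in both directions. Of 30 listed genes of histone transcription and 3′ processing, all tested, 6 rose and 14 fell at 20 μM, 3 rose and 19 fell at 50 μM, and 5 rose and 3 fell with cGAMP. Their median log2 change was −0.19, −0.30 and −0.04 in that order, against −0.00, −0.03 and −0.05 over all tested genes. Of all tested genes, 27.1% rose and 28% fell at 20 μM, 32.2% and 34.7% at 50 μM, and 11.6% and 11.8% with cGAMP. SLBP, the protein that binds the hairpin, was at 82.5, 90.2 and 88.9 CPM in untreated cells, 80.5, 97.0 and 99.5 at 20 μM, and 60.7, 53.1 and 53.7 at 50 μM. It fell at 50 μM (log2 −0.64 ± 0.09, adjusted p = 3.71e-06), below every other library, and was not called at 20 μM (0.08 ± 0.09, adjusted p = 0.432) or with cGAMP (−0.05 ± 0.09, adjusted p = 0.725).

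NPAT, the coactivator of histone genes at the histone locus body, rose at 20 μM (log2 0.46 ± 0.12, adjusted p = 0.00292) and was not called at 50 μM (0.25 ± 0.12, adjusted p = 0.0658). CASP8AP2, a further component of histone locus bodies, rose with cGAMP (log2 0.45) and at 20 μM (0.52) and was at −0.02 ± 0.10 at 50 μM (adjusted p = 0.878). Of the proteins of the U7 particle and its partners, LSM11 fell with cGAMP (log2 −0.44) and at 50 μM (−0.50), ZNF473 fell at 20 μM (−0.42), SNRPD3 fell at both doses (−0.39 and −0.72), and so did the histone pre-mRNA endonuclease CPSF3 (−0.43 and −0.93). TUT7, a terminal uridyltransferase that acts on histone mRNA during its decay, rose in all 3 treatments, with log2 changes of 0.34 with cGAMP, 0.80 at 20 μM and 1.25 at 50 μM.

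Of 24 histone chaperones and importers, 4 rose and 19 fell at 50 μM, where 32.2% of all tested genes rose and 34.7% fell. The counts were 6 and 10 at 20 μM, where 27.1% of all tested genes rose and 28% fell. With cGAMP they were 5 and 5, where 11.6% rose and 11.8% fell. The medians were −0.50 at 50 μM, −0.15 at 20 μM and −0.15 with cGAMP. HJURP, the chaperone of the centromeric H3 variant, fell by 1.72 on the log2 scale at 50 μM, and SUPT16H, a subunit of the FACT complex, fell by 1.32. ATRX, which with DAXX deposits the variant H3.3, rose by 0.99.

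Replication-independent variants, whose genes mostly give ordinary polyadenylated messages, were compared with the clustered copies. The 11 variants summed to 3060 to 3371 CPM per untreated library, against 31.3 to 38.0 CPM for the 36 clustered genes. Per length, 1 variant, H2AX, was at 57.6 ± 3.88 FPKM in untreated cells, against 28.3 ± 3.1 FPKM for H2AC18. Of 11 tested, 1 rose and 7 fell at 20 μM, 2 rose and 8 fell at 50 μM, and 1 rose and 1 fell with cGAMP, with medians of −0.36, −0.59 and 0.01. Of all tested genes, 27.1% rose and 28% fell at 20 μM, 32.2% and 34.7% at 50 μM, and 11.6% and 11.8% with cGAMP. H2AX, the variant phosphorylated at DNA breaks, whose gene can give both a hairpin-ended and a polyadenylated message, was at 69.8, 79.6 and 72.5 CPM in untreated cells, 23.9, 28.9 and 30.7 at 20 μM, and 15.4, 17.1 and 13.0 at 50 μM. The 3 groups did not overlap, and the log2 change was −1.41 ± 0.11 (adjusted p = 1.11e-08) and −2.29 ± 0.11 (adjusted p = 1.72e-11). H2AX had the largest fall of the 11 at each dose, and cGAMP lowered it by less (−0.30 ± 0.10, adjusted p = 0.0424).

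H2AJ fell by 0.88 at 20 μM and 1.30 at 50 μM on the log2 scale, H2AZ2 by 0.52 and 1.21, and H2AZ1 by 0.61 at 50 μM. MACROH2A1 rose by 0.75 and 0.97. H3-3B, an H3.3 gene, rose at 50 μM (0.34) and with cGAMP (0.23, adjusted p = 0.0236).

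S phase genes are given beside the histones, whose messages are normally made in that phase. Of 26 genes of DNA replication, 10 rose and 4 fell at 20 μM, while 2 rose and 17 fell at 50 μM, and 0 rose and 5 fell with cGAMP. The medians were 0.14, −0.59 and −0.10. Of all tested genes, 27.1% rose and 28% fell at 20 μM, 32.2% and 34.7% at 50 μM, and 11.6% and 11.8% with cGAMP. PCNA, the sliding clamp, was at 76.1 ± 4.88 CPM in untreated cells, 90.1 ± 8.74 at 20 μM (log2 0.24 ± 0.08, adjusted p = 0.0179) and 46.3 ± 0.152 at 50 μM (−0.72 ± 0.08, adjusted p = 7.12e-07). RRM2, a ribonucleotide reductase subunit, rose at 20 μM (0.47) and was not called at 50 μM (−0.17, adjusted p = 0.291). The helicase subunit MCM3 fell by 1.16 and UHRF1, which maintains DNA methylation at replication, by 1.30 on the log2 scale at 50 μM. Between the doses, 23 of 26 S phase genes were lower and 1 higher at 50 than at 20 μM, where 19% of all tested genes were lower and 19.1% higher, and 0 of the 11 histone genes were called. The difference between the lists was not tested. The part of cell cycle position in the histone levels was not tested.

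**Figure D5:**
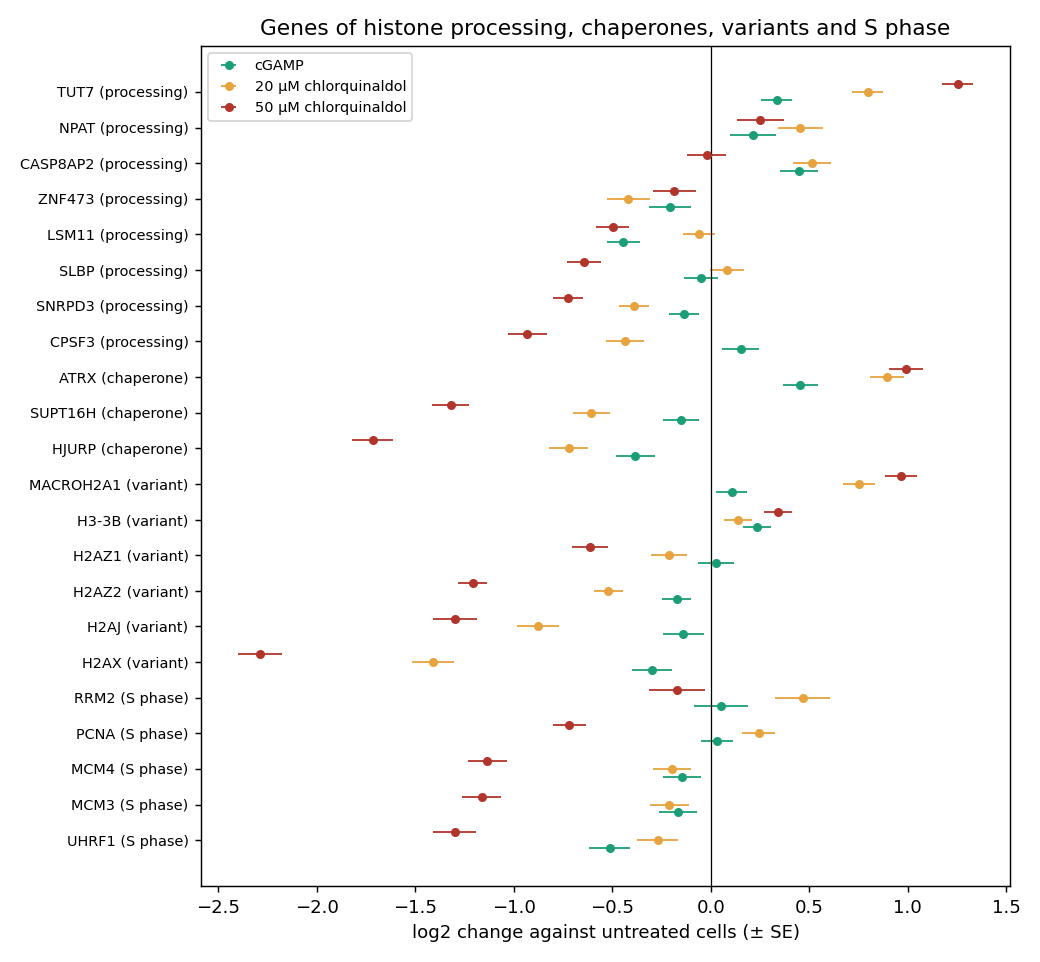
Log2 change against untreated cells (horizontal axis, bars are SE) of named genes of histone transcription and processing, chaperones, replication-independent variants and S phase, for cGAMP and 20 and 50 μM chlorquinaldol. H2AX lies farthest to the left at 50 μM, TUT7 farthest to the right, and PCNA lies above 0 at 20 μM and below 0 at 50 μM.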

How the data were processed

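RNA was sequenced in 12 THP-1 libraries made with oligo(dT) beads (BGI DNBSEQ), per the labels. The authors deposited gene tables of estimated counts and of FPKM, made with RSEM on GRCh38, per the submitters' processing notes. The notes also name DESeq2 1.26.0. RSEM's version, the annotation release and the read strand are not given in the sources used here. Of the estimated counts above 0, 42.138% were not whole and were rounded before testing. The 326 rows that name no gene, 0.182% to 0.29% of the counts of a library, were left out.

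The histone genes and all gene lists were chosen with earlier results of these data known. After filterByExpr (minimum count 10) and TMM scaling, 1 quasi-likelihood model of the 4 groups was fitted (edgeR 4.0.16, R 4.3.3). P-values were adjusted by Benjamini-Hochberg over 16628 genes and called below 0.05. All changes are relative to the bulk of genes, so RNA per cell is not measured. The fit was tested on simulated data. RSEM divides reads between near-identical copies, which touches H4C14 with H4C15 and, over a shorter stretch, H2AC18 with H2AC20. H2AC19 had 0 counts, so the H2AC18 values are read as a joint level of both copies. H3C14 had 0 counts too, and the H3C15 values may be a joint level. Lists covered histone transcription and processing, chaperones, replication-independent variants, S phase, tail-less RNAs and cell type markers. CENPA is not analysed here. Values of 1 listed gene are not reported here.

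Any histone gene past the filter could be named. Per-library values were planned for the 6 with the highest FPKM, the 4 largest called changes with a mean of at least 1 CPM, and the most abundant of each class. H2AC20, H2BC5, H2BC9, H2BC15 and the values given for them were chosen after they were seen. In the lists, 12 genes were set by name and the 3 with the smallest p at 50 μM were added per list. Alternatives were DESeq2 1.42.0, other scaling factors, a replicate block, a fit of the compared groups alone, filters of none or of 1 CPM in 3 libraries, limma 3.58.1 on log2(FPKM + 1) and log2(FPKM + 0.1), an adjusted p below 0.01 and each library left out.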

Additional observations from a re-analysis of the deposited data

How the results depend on the processing

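Counts of called histone genes were recomputed under every alternative. For cGAMP, 1 gene higher became 2 with only the groups compared (H2AC18, H2AC20) and 2 with limma on log2(FPKM + 1) and on log2(FPKM + 0.1) (H2AC18, H2BC5). It became 0 with FPKM of all genes and at an adjusted p below 0.01, and leaving out each library gave 0 to 1. For 20 μM, 2 genes lower became 1 (H2AC20) under DESeq2, at least 1 CPM in 3 libraries or an adjusted p below 0.01, and leaving out each library gave 0 to 3. The 5 genes higher at 20 μM ranged from 4 to 6 over all alternatives. H4C14 was lost without the first untreated library and H1-2 at an adjusted p below 0.01. H2BC5 dropped out at 1 CPM in 3 libraries, where it was not tested. H2BC21 was gained in 4 settings and H4C15 in 1. For 50 μM, 2 lower became 1 (H2AC20) at 1 CPM in 3 libraries, since H2BC9 was not tested there. They became 3, with H3C15 added, without the filter and in several fits with 1 library left out. In those leave-out fits H3C15 passed the filter. With FPKM of all genes, 2 lower became 3 (H2AC17 added) and 5 higher became 3 (H2AC18, H2BC5, H4C14). For 50 μM against 20 μM, 0 higher became 2 without the filter (H2AC18, H2BC15) and 1 with limma on log2(FPKM + 1) (H2BC5), and leaving out each library gave 0 to 1 (H2AC18, without the second 20 μM or the third 50 μM library). There 0 lower became 3 (H2AC20, H2AC6, H2BC9), 2 (H2AC20, H2BC9) and 1 (H2BC9) with limma at a pseudocount of 1, at 0.1 and on all genes. For 50 μM against cGAMP, 2 lower became 1 at 1 CPM in 3 libraries, 4 higher became 1 (H2BC5) with FPKM of all genes and 2 (H2AC6, H2BC5) at an adjusted p below 0.01, and leaving out each library gave 2 to 5. Where no reason is given, the cause was not tested. Single-gene values were also followed for 36 named genes, a different set from the 36 histone genes. This set holds some histone genes, genes of the other lists and tail-less RNAs, and leaves out H2AC20, H2BC5 and H2BC9. Of its 3910 values, 3711 kept their side of the threshold, 123 lost their call, 76 gained one, and 0 of the called values changed sign. Uncalled values near 0 could change sign, as H4C15 did at 50 μM, from 0.24 to −0.40.

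A replicate block left the same genes called in each comparison: 1 higher for cGAMP, 5 higher and 2 lower at each dose, 0 between the doses, and 4 higher and 2 lower against cGAMP. The labels share replicate numbers between groups, but same-numbered libraries did not deviate together (correlations −0.113 to 0.067), so the numbers were not taken to pair samples. Depth limits H3 and the 25 genes under the filter, where single libraries held few or no counts.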
